A study of Zea mays with 2 samples.

Results

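A group of 199 maize genes each had 5 or more binding peaks of the transcription factor KN1. They were chosen by the number of peaks, counted as the different peaks that the deposited table lists beside each annotated gene on the 10 chromosomes whose identifier begins with Zm00001d. They are 199 of the 13947 genes with at least 1 peak, or 1.43%, and they hold 1079 peaks (5.12% of the 21079 peaks assigned to such genes). Since the number of peaks chose the genes, their peak counts, positions, spacing and enrichment are descriptions of 1 peak call, and none of them was tested.

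The peaks come from chromatin immunoprecipitation sequencing (ChIP-seq), in which DNA bound by a protein is recovered and sequenced. Leaf protoplasts, cells stripped of their walls, of the inbred line B73 were prepared from seedlings kept in the dark and were transfected with a plasmid carrying KN1. The protein was overexpressed as a fusion to BLRP (biotin ligase recognition peptide), through which it can be recovered. The groups are 1 ChIP library and 1 input library of chromatin DNA, both from transfected B73 protoplasts. There are no replicates, and a ChIP library from cells lacking the tagged protein was not used here. The promoter that drove the transgene is not given in the sources used here.

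KN1 (KNOTTED1) is a homeodomain protein that controls transcription. It is the founding member of the plant KNOX class. It acts in shoot meristems, where it keeps cells from committing to organ fates, and it is normally absent from developing leaves, where misexpression causes the outgrowths that gave the gene its name. KNOX proteins bind DNA together with partners of the BELL class, and their known targets include hormone genes, other transcription factor genes and KNOX genes themselves. The peaks here come from leaf cells that had been made to express the protein. The sources used here do not pair the identifiers with symbols or functions, so what the 199 genes encode is not described, and no sequence of the peaks was used here.

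Peak number per gene fell steeply at the upper end. Exactly 5 peaks were listed at 141 of the 199 genes, 6 at 39 genes, 7 at 14 genes, 8 at 4 genes and 10 at a single gene. Just outside the threshold lay 392 genes with 4 peaks. The genes with exactly 4 and exactly 5 peaks had median lengths of 2984 and 2786 bp and a median fold of 10.5 in each. Their median distances from the first to the last summit were 5159 and 6546 bp. The fold, here and below, is the authors' own value per peak, taken at its highest point, the summit. It is the linear ratio of ChIP reads to the input level of the peak call, with 1 added to each. At most peaks that level was the same genome background of 1.85, so there the fold follows the ChIP reads alone.

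Genes with many KN1 peaks were of ordinary length. Their median annotated length was 2883 bp (quartiles 1765 and 4688 bp), beside 3012 bp for the 9056 genes with 1 peak, 2747 bp for those with 2, 2671 bp for those with 3 and 2984 bp for those with 4. Genes longer than 10000 bp made up 5.03% of the 199 (10 genes) and 9.30% of the genes with 1 peak. Genes shorter than 500 bp made up 4.52% (9 genes) and 8.77%. The spread within the group was wide, from 69 to 194478 bp. Peaks are listed up to 5 kb from a gene, so even the shortest genes could gather several.

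**Figure D1:**
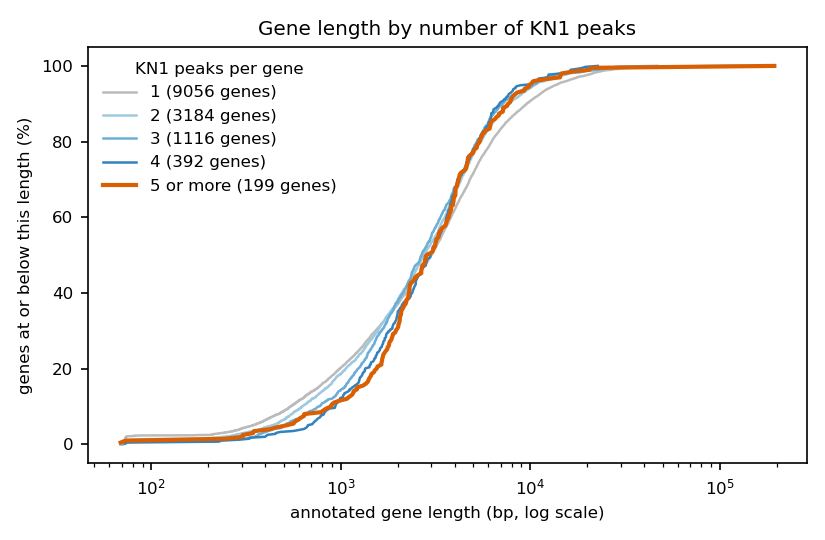
Cumulative share of genes (vertical axis, %) at or below an annotated length (horizontal axis, bp, log scale), with 1 curve for each number of KN1 peaks per gene. The curve of the 199 genes with 5 or more peaks has its median at 2883 bp, between those of genes with 3 and with 4 peaks.

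With peaks listed up to 5 kb from a gene, the flanks of the 199 genes held more of their KN1 summits than the gene bodies. Of 1079 summits, 471 lay upstream of the gene start (43.7%, exact Clopper-Pearson 95% interval 40.7 to 46.7%), 316 inside the gene (29.3%, 26.6 to 32.1%) and 292 downstream of the end (27.1%, 24.4 to 29.8%). The intervals cover counting error only, and summits of 1 gene are not independent. The corresponding shares at genes with 1 peak were 46.5, 34.8 and 18.7%. At genes with 4 peaks they were 44.5, 29.5 and 26.0%, so the 199 genes lay close to the next lower class. The order depends on the width of the flanks: with only summits inside or within 2000 bp counted, 66 genes had 5 or more, and 53.3% of their summits lay inside, 28.7% upstream and 17.97% downstream.

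Summits at these genes were spread far from the gene start. Within 500 bp of the start lay 163 summits (15.1%), of which 109 were upstream, 53 inside and 1 just past the end of a very short gene. The share was 52.8% at genes with 1 peak, 31.8% with 2, 22.9% with 3 and 19.3% with 4. Separate peaks cannot all lie at the start, so this share falls as peaks are added. Counted per gene, 156 of the 199 (78.4%) had at least 1 summit within 500 bp of the start, beside 52.8% of genes with 1 peak and 74.5% of those with 4. Genes with more peaks have more chances to have one there. The summit closest to the start lay a median of 222 bp from it (quartiles 82 and 452.5 bp).

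The upstream summits of the 199 genes extended to the limit of the listing. Their median distance from the gene start was 1556 bp (quartiles 584.5 and 3102 bp), beside 299 bp for genes with 1 peak and 1277 bp for those with 4. Beyond 4000 bp lay 63 upstream and 30 downstream summits, and the farthest upstream summit was 5810 bp out. The listed distance, at most 4998 bp, runs to the edge of the peak, so a summit can lie beyond 5 kb. Upstream summits far from the start were not weaker in median fold than those near 1 kb. The median was 14.02 in the first 500 bp, 9.47 at 500 to 1000 bp, 9.11 at 1000 to 2000 bp, 11.04 at 2000 to 3000 bp, 16.3 at 3000 to 4000 bp and 11.6 beyond. Downstream summits had a median distance of 1510 bp from the gene end, beside 949 bp for genes with 1 peak.

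**Figure D2:**
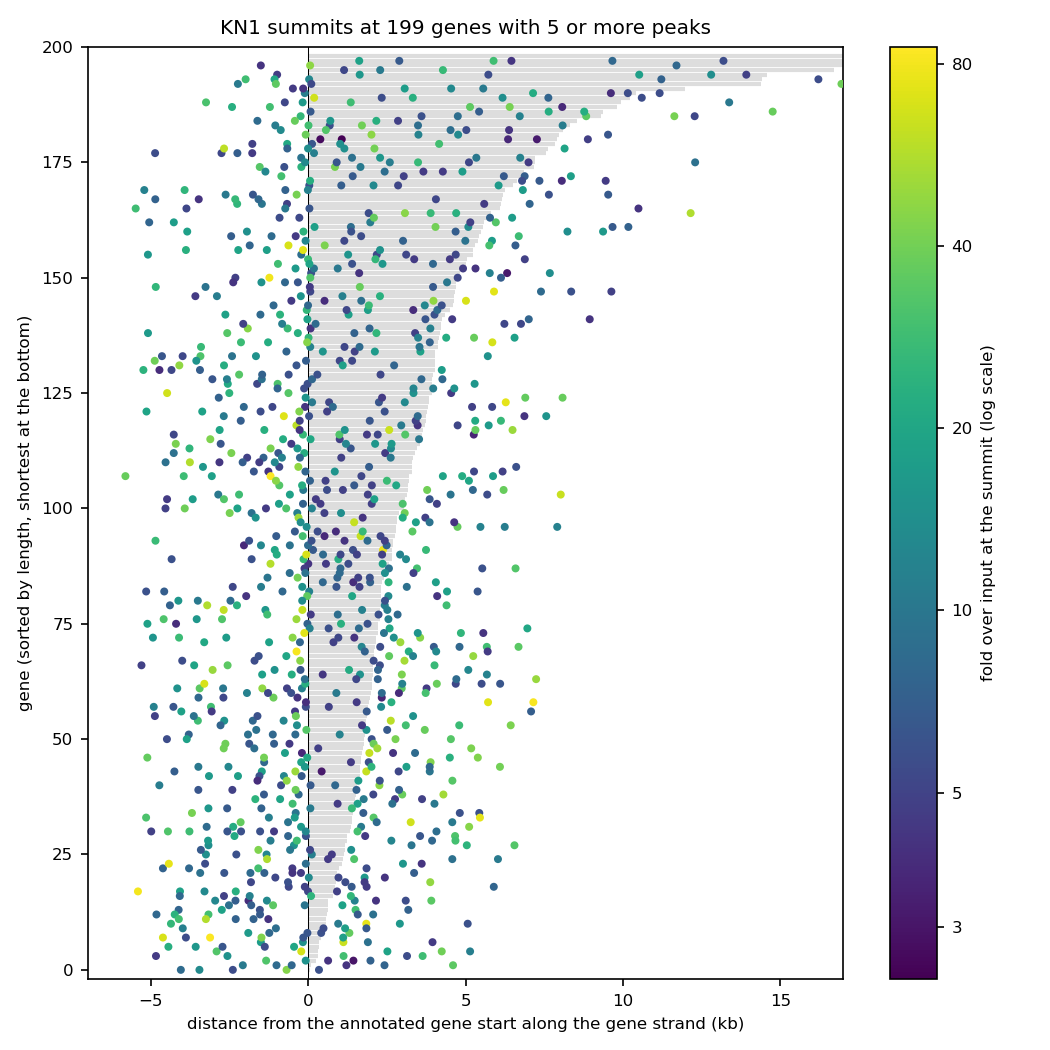
Each row is 1 of the 199 genes, sorted by length, with its body in grey and its KN1 summits as points placed by distance from the annotated gene start in kb along the gene strand; colour gives the fold over input on a log scale. Summits lie on both sides of the bodies as well as inside, and 14 summits more than 17 kb beyond the start, at 5 genes, fall outside the axis.

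Most of the genes had KN1 summits on both flanks. Genes chosen for many peaks have more chances to have one on each side, and genes with fewer peaks are not set beside them here. Summits lay upstream, inside and downstream at 81 genes (40.7%). A further 52 (26.1%) had summits on both flanks and none inside, 45 (22.6%) had summits upstream and inside only, and 15 (7.54%) inside and downstream only. At least 1 upstream summit was listed at 182 genes, and 91 had 3 or more. Upstream summits outnumbered downstream ones at 113 genes, the reverse held at 51 and the numbers were equal at 35.

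Gene bodies held most of the summits at 49 genes, with a median length of 5058 bp and a shortest of 2219 bp. The 56 genes with no summit inside had a median length of 1458 bp and a longest of 6251 bp. With flanks limited to 5 kb, a longer body has more room for summits. Both kinds reached similar extents, with a median of 6635 bp from first to last summit in the former and 6949 bp in the latter. Over all 316 summits inside the genes, with each gene divided into 5 equal segments from start to end, the segments held 23.4, 20.6, 15.8, 17.7 and 22.5%, so the bodies were covered nearly evenly.

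All summits lay on 1 side or inside in only a few genes. At Zm00001d005969 on chromosome 2 (194253687 to 194260197, plus strand) all 5 lay inside, at 32, 1050, 2074, 2855 and 6049 bp from the start, with folds of 5.96, 7.01, 12.97, 5.26 and 16.8. The highest of them was thus the one near the gene end. The other such gene, Zm00001d001010, is described with the longest genes. At 4 genes all summits lay upstream, and at none did all lie downstream.

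Genes with upstream summits alone carried a series of peaks of unequal height. Zm00001d048066 on chromosome 9 (149283435 to 149286730, minus strand) had 6 summits between 1064 and 4534 bp upstream, of which the one at 3762 bp had a fold of 56.4 and the others 4.32 to 12.97. Zm00001d013570 on chromosome 5 (14472448 to 14473020, plus strand) had 5 between 1269 and 4113 bp upstream, with the highest fold, 56.8, at 3253 bp. In both genes the strongest peak was a distal one and no summit lay within 500 bp of the start. Zm00001d017968 on chromosome 5 (211000353 to 211000697, minus strand) had 5 between 451 and 4444 bp upstream, with folds of 19.98 at the nearest and 22.8 at the farthest and 5.61 to 16.1 between them.

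Neighbouring summits of a gene were a median of 1231 bp apart (quartiles 829.75 and 2026 bp, 880 gaps). This gap was 1798 bp at genes with 2 peaks, 1524 bp with 3 and 1448.5 bp with 4. Packing more peaks into a stretch of at most the gene and its 5-kb flanks shortens the gaps by construction. Where another gene lay nearer, a peak could be listed with that gene alone, so the stretch can be shorter. Gaps under 1000 bp made up 37.5% (330) and gaps under 500 bp 3.18% (28), while 12.8% (113) exceeded 3000 bp. Where both summits lay upstream the median gap was 993 bp, where both lay inside it was 1168 bp, and across a gene edge it was 1737.5 bp.

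**Figure D3:**
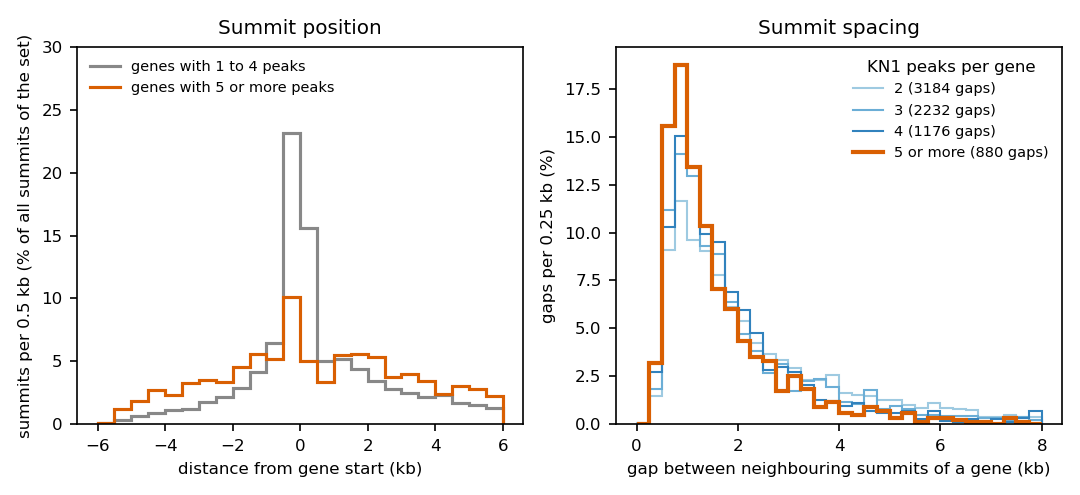
Left, share of summits per 0.5 kb against distance from the gene start (kb) for genes with 1 to 4 and with 5 or more KN1 peaks; right, share of gaps per 0.25 kb against the gap between neighbouring summits of a gene (kb), by number of peaks per gene. The group with 5 or more peaks has a lower maximum at the start, wider flanks and a median gap of 1231 bp.

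Gaps differed in size within genes. The largest gap of a gene was a median of 3.98 times its smallest (quartiles 2.73 and 6.11). The smallest gap had a median of 690 bp and the largest a median of 2921 bp. The most even was Zm00001d034129, named here after its values were seen, with gaps of 952 to 1368 bp. From first to last summit the genes spanned a median of 6943 bp (quartiles 5590 and 9098 bp), and their peaks together covered a median of 3023 bp of DNA. At all 199 genes the peaks carried consecutive numbers in the peak list, so no peak listed with another gene alone and no unlisted number lay between them. At 95 genes (47.7%) the number just before the first or just after the last peak is not in the table.

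The peaks of 1 gene differed widely in strength. Median fold over the 1079 peaks was 10.5 (quartiles 5.96 and 22.4), beside 8.76 at genes with 1 peak and 10.5 at genes with 3 and with 4. Ranked within each gene, the strongest peak had a median fold of 36.8, the second 18.9, the third 10.6, the fourth 7.36 and the one after it 5.26. The highest peak exceeded the lowest of its gene by a median factor of 6.81 (quartiles 4.88 and 9.32). It was at least 2 times the next one at 70 genes (35.2%), and the median ratio of the strongest to the next was 1.59 (quartiles 1.25 and 2.39).

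**Figure D4:**
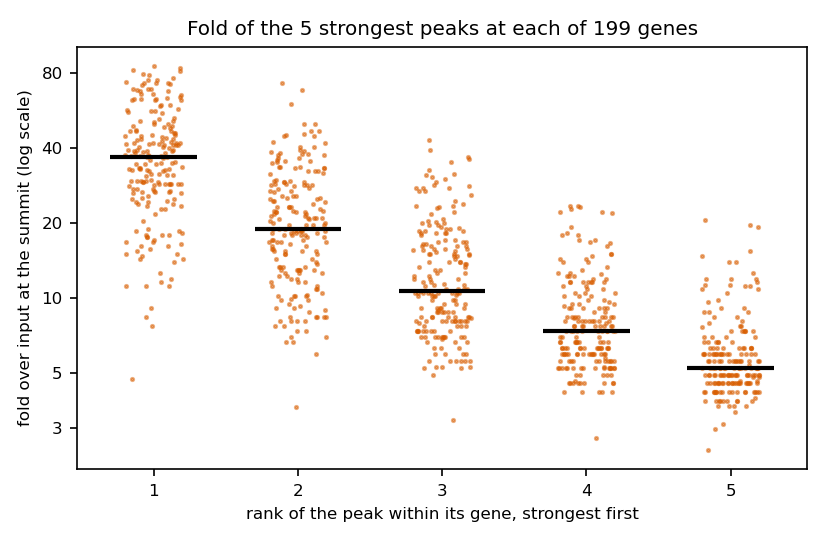
Fold over input at the summit (log scale) of the 5 strongest KN1 peaks of each of 199 genes, by rank within the gene; points are genes and bars are medians. The medians fall from 36.8 at rank 1 to 5.26 at rank 5, as the ranking itself requires.

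Strong and weak peaks rested on very different numbers of reads. Pileup, the number of overlapping ChIP reads at a summit as worked out from the authors' fold and p-value, ranged from 8 to 242 with a median of 29. At the genome background of input, a level of 1.85, each ChIP read is worth 0.351 of fold. Membership of many genes rests on such weak peaks: counting only peaks with a −log10 q of at least 10, 49 of the 199 genes still had 5 or more. A fold of 10 or more was reached by 3 or more peaks at 114 genes, by all peaks at 8 genes and by none at 4. These 4, named here after their values were seen, are Zm00001d002801, Zm00001d013118, Zm00001d033859 and Zm00001d052118.

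The strongest peak of a gene lay at its start about as rarely as summits in general. It lay upstream at 98 genes (49.2%), inside at 37 (18.6%) and downstream at 64 (32.2%), a median of 2585 bp from the start in either direction. Only 29 genes (14.6%) had it within 500 bp of the start, and at 35 genes (17.6%) it was the summit nearest to the start. At genes with 2, 3 and 4 peaks the strongest summit lay within 500 bp of the start in 32.8, 21.8 and 15.3%. The share of all summits near the start also falls as peaks are added. Summits inside the genes were weaker, with a median fold of 8.06, beside 11.6 upstream and 11.6 downstream; at genes with 1 to 4 peaks these medians were 7.71, 10.5 and 10.5. Summits within 500 bp of the start had a median fold of 11.2, beside 10.2 for the others of the 199 genes.

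The gene with most peaks was Zm00001d022451 on chromosome 7 (177999485 to 178000798, minus strand), with 10 peaks around a body of 1314 bp. It had 8 upstream and 2 downstream summits and none inside. The upstream series began at 79 bp with a fold of 12.6, continued with 4 weak peaks between 1088 and 2571 bp (4.56 to 6.31), and reached 28.4 at 3776 bp and 32.3 at 4459 bp. Downstream, a peak 252 bp past the end had a fold of 29.8. The outermost upstream summit, at 4990 bp, had only 4.91. The 3 highest peaks thus lay at 3776 and 4459 bp upstream and just past the gene end.

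The genes with 8 peaks had summits on both flanks as well, of unequal height. Zm00001d039032 on chromosome 6 (168945257 to 168948458, plus strand) had the highest single fold of the group, 85.2, at a summit 1197 bp upstream with a pileup of 242 reads. Its other upstream summits, at 3065, 3957 and 5810 bp, had folds of 18.2, 28.04 and 37.5. The 3 downstream summits had folds of 17.2 to 21.9, and the only one inside had 5.26. The summit inside thus had the lowest fold of the 8 peaks of this gene.

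Zm00001d026047 on chromosome 10 (136891564 to 136893726, minus strand) had folds of 45.2 at 497 bp upstream and 44.5 at 1394 bp downstream, against 5.26 and 4.21 at its 2 summits inside. Zm00001d028482 on chromosome 1 (36508912 to 36510926, minus strand) had 6 upstream summits, the highest being 46.97 at 1460 bp and 35.1 at 3451 bp, and another of 35.1 at 956 bp downstream. Zm00001d002576 on chromosome 2 (15881659 to 15882300, plus strand) had 4 summits on each flank of a 642-bp body. Its strongest, 34.4, lay 3270 bp downstream, and the others had folds of 3.86 to 12.97.

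Of the genes with 7 peaks, the 5 of highest summed fold differed in where the strong peaks lay. Zm00001d047750 on chromosome 9 (140834066 to 140837709, minus strand) had its highest fold, 63.8, inside the gene at 2572 bp from the start, with 36.8 and 49.8 downstream at 1670 and 2849 bp. Zm00001d003228 on chromosome 2 (36827859 to 36829876, minus strand) had 68.7 at 3303 bp upstream, 23.1 at 93 bp upstream and 5 downstream summits of 5.26 to 37.9. Zm00001d029934 on chromosome 1 (95220121 to 95221774, plus strand) was bracketed by 50.1 at 410 bp upstream and 62.4 at 191 bp downstream, with only 3.16 at its summit inside.

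The remaining genes of this set had their highest peak past the gene end. Zm00001d043950 on chromosome 3 (214609031 to 214612175, plus strand) had a fold of 63.1 at 4880 bp downstream, near the limit of the listing, and 28.4 at 2199 bp upstream. Zm00001d002302 on chromosome 2 (9791380 to 9800679, minus strand), 9300 bp long, had 41.02 at 2335 bp downstream, 25.9 at 242 bp upstream and 34.7 inside at 8832 bp from the start.

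**Figure D5:**
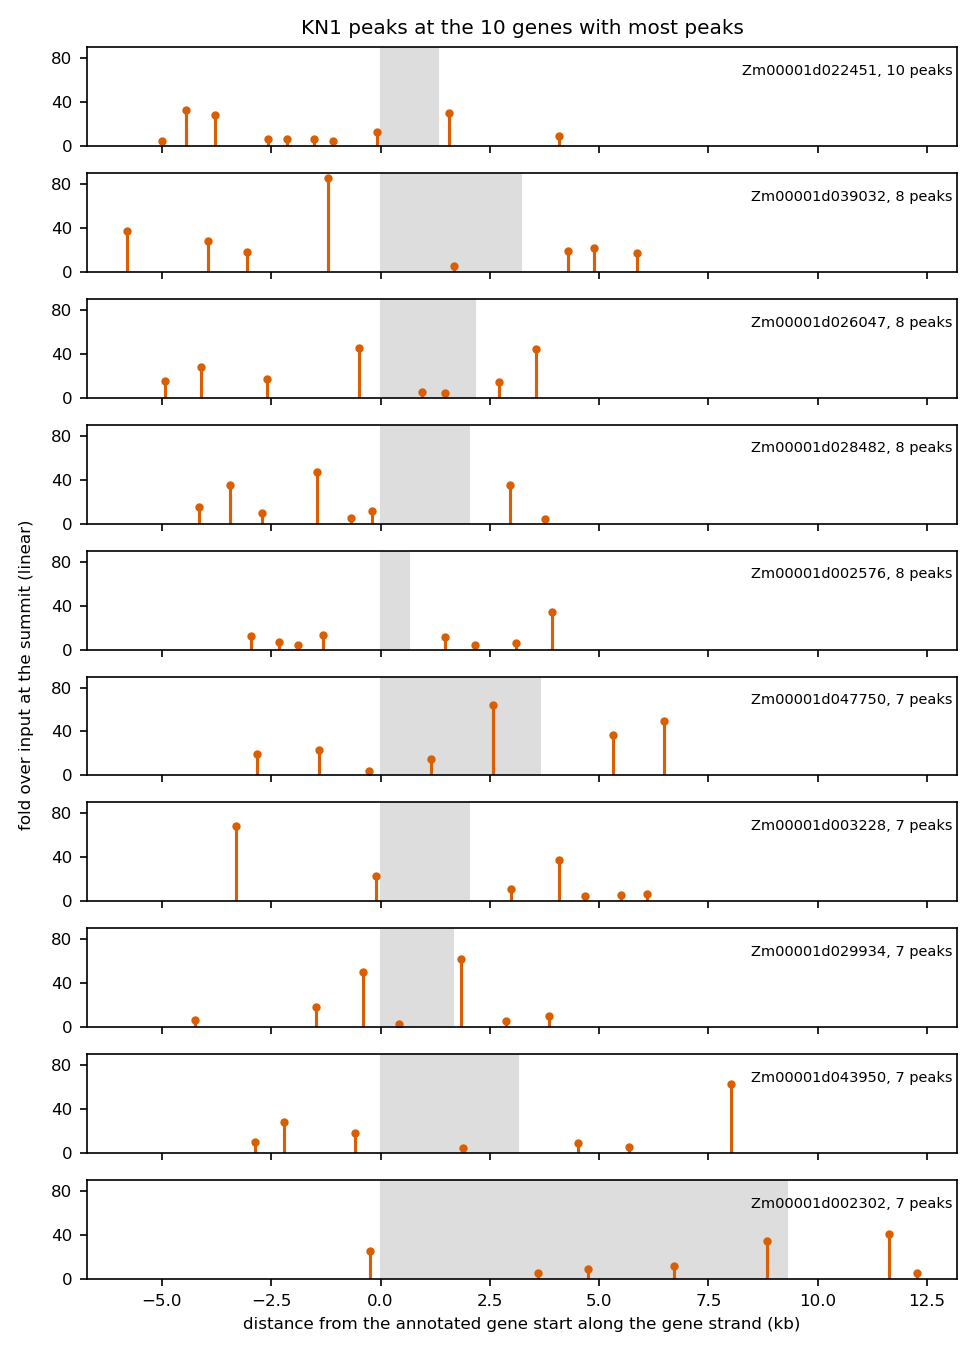
KN1 peaks at the 10 genes with most peaks, as vertical lines whose height is the fold over input (linear, from 0) at the summit, against distance from the annotated gene start in kb along the gene strand; grey marks the gene body. Zm00001d039032 has the tallest peak, 85.2, and the highest peak lies outside the body at 9 of the 10 genes.

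The longest gene had its peaks in separate clusters. Zm00001d001010 on chromosome 2 (209197749 to 209392226, plus strand) is annotated over 194478 bp and had 7 summits inside, 2 at 40257 and 42626 bp from the start and 5 between 122081 and 138450 bp. The clusters were 79455 bp apart. Of its peaks, 4 are also listed with the shorter genes Zm00001d006471 and Zm00001d006472, which lie within its bounds, so they cannot be assigned to 1 gene. Zm00001d019376 on chromosome 7 (30724557 to 30745574, plus strand), of 21018 bp, had 6 summits inside and 1 downstream, with the highest fold, 28.7, at 5889 bp from the start.

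Zm00001d006614 on chromosome 2 (212621606 to 212642194, minus strand), of 20589 bp, was bound strongly at both ends. Its summit 59 bp inside the start had a fold of 46.6 and the one 1097 bp past the end 49.8, while the single summit deep inside, at 11702 bp, had 8.06. These 3 genes also had the largest extents from first to last summit, 98193, 22311 and 24869 bp.

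The shortest gene models were bound in their flanks alone. Zm00001d033576 on chromosome 1 (267642965 to 267643033, plus strand) is annotated over 69 bp and had 4 upstream summits and 1 downstream, with a fold of 44.2 at 689 bp upstream and 5.61 to 13.3 elsewhere. Zm00001d047564 on chromosome 9 (135707642 to 135707714, plus strand), of 73 bp, had 3 summits on each side, the highest being 34.7 at 4529 bp downstream. Zm00001d038401 on chromosome 6 (156376400 to 156376642, minus strand), of 243 bp, had folds of 32.3 and 15.1 at 1339 and 81 bp upstream and 2.99 to 7.36 downstream.

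The tightest clusters packed 5 summits into about 3 kb. Zm00001d013570 had the smallest extent, 2844 bp. In Zm00001d021839 on chromosome 7 (164317820 to 164319461, minus strand) the 5 summits covered 2945 bp, all between 210 and 3155 bp upstream, with folds of 5.96 to 17.9. In Zm00001d036736 on chromosome 6 (99406292 to 99413471, plus strand) they covered 3202 bp across the gene start, with folds of 33.7, 5.96 and 23.8 at 1542, 762 and 220 bp upstream and 41.4 and 10.5 at 849 and 1660 bp inside. The clusters of the first 2 of these genes lay entirely upstream, and the third straddled the start.

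At the genes with the highest median fold the strong peaks lay on both flanks. A high median over 5 peaks itself requires 3 strong ones. Zm00001d017682 on chromosome 5 (204120837 to 204122561, minus strand) had a median of 39.3, from folds of 39.3 at 2686 bp upstream and 51.2 and 42.4 at 472 and 3455 bp downstream, with 8.76 at 1714 bp upstream and 4.84 inside. In Zm00001d046805 on chromosome 9 (106603130 to 106604806, minus strand) the median was 36.1 and no peak was below 20.6; the highest, 43.8, lay 3713 bp downstream. Zm00001d001728 on chromosome 5 (206105920 to 206106223, plus strand), of 304 bp, had a median of 32.6 and folds of 67.7 at 222 bp and 32.6 at 2913 bp upstream and 39.3 at 3939 bp downstream.

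At the other end, Zm00001d002641 on chromosome 2 (17744486 to 17748716, minus strand) had a median of 5.26 and a highest fold of 11.2 at 830 bp upstream. Zm00001d033623 on chromosome 1 (269047817 to 269052874, plus strand) had a median of 4.91, although its peaks at 6 bp upstream and 2134 bp inside reached 27.3 and 25.6. Low medians thus occurred with and without a strong peak.

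The lowest median fold, 3.23, was at Zm00001d033859 on chromosome 1 (276073335 to 276081242, minus strand), the only one of the 199 genes with an input level above 8. The input level, a value of the peak call and not a count of reads, was 83.4, 26.6, 51.8 and 48.2 at its 4 summits inside the gene. These summits lay at 384, 1065, 6350 and 7267 bp from the start, and the background level was 1.85. Their pileups of 230, 67, 192 and 158 reads gave folds of only 2.74, 2.46, 3.66 and 3.23. The remaining peak, 979 bp past the end, had a fold of 4.72 with an input level of 4.72. The other 198 genes had no input level above 4.02. Raised input occurred at 95 of the 1079 peaks (8.80%), 5 of them at this gene, beside 8.22% at genes with 1 peak.

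KN1-rich genes were found on all 10 chromosomes. They made up 1.998% of the genes with a peak on chromosome 10 (18 of 901), 1.66% on chromosome 7 (19 of 1147) and 1.65% on chromosome 1 (37 of 2247), but 0.706% on chromosome 4 (9 of 1274). With each chromosome divided into 10 equal segments, 90 of 5144 genes with a peak in the outermost segments (1.75%) belonged to the group, beside 11 of 1682 (0.654%) in segments 4 to 6. The share was thus larger towards the chromosome ends.

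Most of these genes had no other gene of the table close by. Another gene of the table lay within 10000 bp of 72 of the 199 genes (36.2%), beside 39.4% of genes with 1 peak and 45.7% of those with 4. The median distance to the next listed gene was 61803 bp upstream and 42302 bp downstream. Genes without a peak are not in the table, so these distances are upper limits.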

How the data were processed

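One ChIP library was compared by the authors with 1 input library. Per the submitters' processing notes, the tools were MACS2 (no version given), SAMtools 1.11, Bowtie2 2.4.2 and fastp 0.21.0; duplicate removal and an effective genome size of 700 Mb are read from the peak names. The build is not given in the sources used here; Zm00001d identifiers belong to the B73 assembly AGPv4. The deposited table gives for each peak and gene a score, the fold (a ratio) at the summit with its −log10 q-value and −log10 p-value, the summit offset and the distance to the gene, which reached 5 kb. Library totals are not in the table, so depth is known only as pileup.

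Members had 5 or more different peak names. Summits were placed by strand. A summit listed with several genes counted for each, but some peaks near more than 1 gene are listed with the nearer alone. Pileup and input were solved from fold and p-value under the MACS2 formulas, with a relative error below 1e-05 at every peak. Input more than 0.01 above its commonest level counted as raised. Genes were named by peak number (10 highest), length, extent and median fold (3 from each end), highest fold, summits all in 1 class, adjacency and input above 8. Members, lists and tests were chosen with earlier results of these data known. Code was tested on simulated data. The work used matplotlib 3.10.9, scipy 1.17.1, pandas 2.3.3 and numpy 2.4.6 under Python 3.11.15.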

Additional observations from a re-analysis of the deposited data

How the results depend on the processing

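With 1 library of each kind, no value has a replicate error and no replicate could be left out. No paired analysis was possible because each group has 1 sample. A value was taken to have moved when it left the 95% interval of the reported one, or, for the number of genes, changed by more than 1.5 times. Of 93 recomputed values, 56 stayed and 37 moved. None moved when summits less than 500 bp apart were merged (183 genes left), with only peaks listed with 1 gene (194), without peaks of raised input (146), with peak middles in place of summits, or, added after seeing the data, without Zm00001d033859 or the longest gene.

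Requiring a −log10 q of at least 10 left 49 of 199 genes, with a median length of 2266 bp, summits 47.3% upstream, 18.99% inside and 33.7% downstream, a median gap of 1593 bp, extent of 8114 bp and fold of 16.8. Keeping peaks at or above the median fold left 21 genes, with 2291 bp, shares of 49.5, 12.6 and 37.8%, a gap of 1665.5 bp, an extent of 9308 bp and a fold of 19.6. Merging summits less than 1000 bp apart left 46 genes, with 3874.5 bp, 35.5% upstream and 35.5% inside, a gap of 1884 bp, an extent of 9079 bp and a fold of 14.02. Keeping summits inside or within 2000 bp left 66 genes, with 3981 bp, shares of 28.7, 53.3 and 17.97%, a gap of 1107 bp, an extent of 5410 bp and a fold of 9.30. Fewer peaks per gene, higher folds after removing weak peaks and wider gaps after merging follow from how these settings are built. So do more summits inside and shorter extents after trimming the flanks. The cause of the other shifts was not tested. A threshold of 6 peaks gave 58 genes, a gap of 1154.5 bp and an extent of 8119.5 bp, and one of 4 peaks gave 591 genes, 1348.5 bp and 5898 bp. The upstream share exceeded the inside share except within 2000 bp, where the order reversed, and after merging at 1000 bp, where they were equal.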

Other observations

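Members of the group were adjacent at 4 places, with no other gene of the table in the space between them, and the 3 closest pairs are described. On chromosome 5, Zm00001d017976 (211152775 to 211154133, minus strand) and Zm00001d017977 (211161703 to 211171628, plus strand) were 7569 bp apart and transcribed away from each other, with 5 peaks each. The stretch between them held 3 summits of each gene, with folds of 16.8, 21.4 and 8.41 at 229, 2385 and 3229 bp upstream of the former and 16.8, 5.26 and 30.8 at 178, 745 and 3249 bp upstream of the latter. The highest fold of the former, 44.5, lay 3755 bp past its end, and the latter had 28.4 inside at 1351 bp from its start. The summits at 3229 and 3249 bp upstream lay within 5 kb of both genes, but each is listed with the nearer gene alone.

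On chromosome 8, Zm00001d008794 (20545295 to 20547560, minus strand) and Zm00001d008795 (20660019 to 20662322, plus strand) were much farther apart, at 112458 bp. Each had 4 upstream summits and 1 downstream. The former was bound more strongly, with folds of 11.9 to 50.1 against 5.96 to 15.8. On chromosome 1, Zm00001d028073 (21990180 to 22006881, plus strand) and Zm00001d028074 (22016444 to 22018586, plus strand) were 9562 bp apart. The former had folds of 9.11 and 14.4 at 1254 and 4709 bp past its end. The summit at 4709 bp also lay within 5 kb of the start of Zm00001d028074, but its peak is listed with Zm00001d028073 alone. Without that peak, Zm00001d028073 would have fewer than 5. Zm00001d028074 had 20.7, 18.9 and 7.71 at 3306, 1244 and 264 bp upstream, and its highest fold, 50.8, at 786 bp past its end.

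Peaks listed with more than 1 gene occurred at 7 members, 13 peaks in all. This count leaves out peaks close to another gene but listed with the nearer alone, as at the pairs on chromosomes 5 and 1. Without such peaks 5 of the 199 genes fall below 5 peaks. They are Zm00001d001010, Zm00001d003495, Zm00001d018628, Zm00001d028073 and Zm00001d038963, named after their values were seen, and 3 of them are longer than 10000 bp.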
